A study of Homo sapiens with 8 samples.

Results

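The 10 genes described here encode factors that keep chromatin silent: TASOR and PPHLN1 of the HUSH complex, its partner MORC2, the H3K9 methyltransferase SETDB1 with its cofactor ATF7IP, the co-repressor TRIM28, the HP1 proteins CBX1, CBX3 and CBX5, and the DNA methyltransferase DNMT1. They were picked by name from a table of 60617 genes, each matched 1 gene identifier, and all 10 were among the 17527 genes that passed the filter on low counts. The names were chosen with earlier results of these libraries known, so the values below describe the genes and give no independent evidence about the set. The messenger RNA of HEK293T was sequenced in 8 libraries, 2 for each of 4 genotypes; this transformed line of human embryonic kidney expresses the SV40 large T antigen. The genotypes were sgKDM5C (KDM5C knockout, an H3K4 demethylase), sgKDM6A (KDM6A knockout, an H3K27 demethylase), sgKMT2B (KMT2B knockout, an H3K4 methyltransferase) and WT. The WT titles name no guide and do not say whether a control guide was used. The labels tell neither clones from pools nor separate cultures from repeat libraries. The p-values therefore speak of how these samples scatter, and that scatter may be technical.

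HUSH is recruited to long, intron-poor transcripts and to retroelements such as LINE-1. TASOR is its scaffold, PPHLN1 binds RNA, and MPHOSPH8 reads H3K9 trimethylation. SETDB1 writes this mark, guided by ATF7IP or, through KRAB zinc finger proteins, by TRIM28, and the HP1 proteins bind it and compact the chromatin. MORC2 is an ATPase that works with HUSH, and DNMT1 copies DNA methylation after replication.

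Libraries held 15868353 counts in WT replicate 2 and between 25062543 and 27591724 in the other 7. Between replicates, Pearson's r of log CPM over genes was 0.98 to 0.985, and between libraries of different genotypes 0.951 to 0.969 (a description, since genes are not independent). CPM here are counts scaled to a common library size with TMM factors. Each targeted gene was lowest in its own knockout. KDM6A had 10.3 and 11.5 CPM in the sgKDM6A libraries, against 54.2 and 61.2 CPM in WT. KMT2B was at 63 and 75.5 CPM in sgKMT2B, against 146 and 137 CPM in WT. KDM5C was at 331 and 312 CPM in sgKDM5C, against 440 and 471 CPM in WT. The other knockouts were also below WT for KDM5C, at 378.7 and 386.5 CPM in sgKDM6A and 395.3 and 390.1 CPM in sgKMT2B. Of 11 kidney epithelial markers 9 or 10 had counts in each group, with summed levels of 223 to 226 CPM in sgKDM5C, 139 to 143 CPM in sgKDM6A, 380 to 410 CPM in sgKMT2B and 250 to 253 CPM in WT. PAX8 was at 0 counts in sgKDM6A and WT, and CDH16 in all groups. Of 6 blood markers 2 or 3 had counts in each group, with summed levels of 7.14 to 7.3 CPM in sgKDM5C, 3.41 to 3.47 CPM in sgKDM6A and 3.13 to 3.19 CPM in sgKMT2B, against 3.58 to 3.76 CPM in WT, and CD3E, HBB and LST1 had 0 counts in all libraries. The summed level of 6 fibroblast markers was 31.1 to 33.7 CPM in sgKDM5C, 22.5 to 24.5 CPM in sgKDM6A and 80.9 to 94 CPM in sgKMT2B, against 54.2 to 55.8 CPM in WT. That of 7 neuronal markers was 47.1 to 57.9, 50 to 60.9 and 17.3 to 18.6 CPM in the same knockouts, against 42.4 to 46.3 CPM in WT. The part of these marker shifts in the results below was not tested.

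Promoter sequences are shown for the HUSH scaffold, its ATPase partner and the methyltransferase, which differ in CpG content. Against WT, TASOR was called in every knockout, and MORC2 and SETDB1 were both called in sgKMT2B only. TASOR had the largest change among the 10 genes in sgKDM5C and in sgKMT2B. MORC2 and SETDB1 were added after their values were seen. Each run reads 5′ to 3′ on the gene's strand, ends at the base before the RefSeq start site, and lies outside the gene's span in GENCODE v29. The sequences are RefSeq's, on GRCh38.p14, and the start site is that of the gene's most upstream entry. For MORC2 it is base 30968774, upstream of the GENCODE span that begins at 30968298, so the run does not adjoin that span. Capitals mark matches on either strand to the GC box, which reads GGGCGG, to the box named for its letters CCAAT, and to the E box, which reads CACGTG.
TASOR, minus strand, chr3:56683266-56683515: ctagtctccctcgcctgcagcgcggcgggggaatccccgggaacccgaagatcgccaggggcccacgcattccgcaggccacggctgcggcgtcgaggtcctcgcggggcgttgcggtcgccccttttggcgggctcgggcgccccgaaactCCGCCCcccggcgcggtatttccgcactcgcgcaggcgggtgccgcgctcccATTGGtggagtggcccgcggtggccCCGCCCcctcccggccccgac
MORC2, minus strand, chr22:30968775-30969024: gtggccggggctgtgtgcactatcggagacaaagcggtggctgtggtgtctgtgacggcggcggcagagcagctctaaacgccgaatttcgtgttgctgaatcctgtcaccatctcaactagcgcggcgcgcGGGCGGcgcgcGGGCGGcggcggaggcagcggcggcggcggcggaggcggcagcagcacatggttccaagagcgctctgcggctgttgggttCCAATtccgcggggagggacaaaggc
SETDB1, plus strand, chr1:150926013-150926262: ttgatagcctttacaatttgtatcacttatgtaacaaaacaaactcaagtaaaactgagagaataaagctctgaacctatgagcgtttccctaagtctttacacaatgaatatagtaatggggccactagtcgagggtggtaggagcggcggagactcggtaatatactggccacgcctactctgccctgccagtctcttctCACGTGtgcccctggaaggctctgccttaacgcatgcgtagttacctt
Over the 300 bases from 250 before to 50 after the start, TASOR held 43 CpG dinucleotides, MORC2 35 and SETDB1 15, beside a median of 14 over 35116 RefSeq promoter windows. TASOR and MORC2 each held 2 GC boxes, which 45% of all windows hold, and 1 CCAAT box, held by 34.6%. SETDB1 held neither and had 1 E box, held by 7.26%. The ATF7IP window held 24 CpG, 2 GC boxes and 2 CCAAT boxes, and that of CBX5 25 CpG, 2 GC boxes, 1 CCAAT box, 2 E boxes and 1 E2F match (TTTNGCGC, in 1.79% of all windows). Matches to different motifs may overlap. The YY1 motif (AAGATGGC) and the NRF1 motif were not in the windows of these 5 genes, nor was the box that reads TATAAA. The table matched 9 of the 10 genes. TRIM28 is named only. The windows of CBX1, PPHLN1, DNMT1 and CBX3 held 38, 31, 30 and 19 CpG, and CBX1, PPHLN1 and DNMT1 were called in no knockout against WT. The start sites used for PPHLN1 (42326167) and DNMT1 (10194953) lie far inside their GENCODE spans, so these windows may not be their main promoters. Whether CpG content goes with the changes was not tested.

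Per kilobase of annotated exon, TRIM28 was the most abundant of the 10 transcripts and ATF7IP and PPHLN1 the least. WT levels per kb were 257 ± 30.6 CPM for TRIM28, 49.5 ± 0.0522 for DNMT1, 39.7 ± 0.323 for CBX1, 26.8 ± 8.85 for CBX3 and 15.5 ± 3.13 for CBX5 (mean ± SD, n = 2). The H3K9 and HUSH group was lower, at 12.3 ± 0.0725 CPM per kb for SETDB1, 11.1 ± 0.818 for MORC2 and 7.58 ± 0.715 for TASOR. ATF7IP at 4.51 ± 0.175 and PPHLN1 at 4.5 ± 0.113 CPM per kb did not differ beyond their spread on this length. Per kb of the longest transcript PPHLN1 was at 9.15 CPM and ATF7IP at 6.69 CPM in WT, so their order depends on the length chosen. TRIM28 exceeded 99.3% of tested genes in WT on this scale, and PPHLN1 57.1%, against a median of 3.17 CPM per kb over 17331 tested genes with a length. Isoform use is not resolved by counts per gene.

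Against WT, the called genes among the 10 were all higher and none was lower. By gene, 3 were called in sgKDM5C (TASOR, ATF7IP, CBX5), in sgKDM6A 3 (TASOR, ATF7IP, CBX3) and in sgKMT2B 5 (TASOR, MORC2, SETDB1, ATF7IP, CBX5), by edgeR's quasi-likelihood test at a Benjamini-Hochberg adjusted p under 0.05. Over all 17527 genes, sgKDM5C had 22.6% called and 11.1% called as higher, sgKDM6A had 27.2% and 12.6%, and sgKMT2B had 28.1% and 13.7%. The median log2 change of the 10 genes was 0.17, 0.19 and 0.26 in these knockouts, beside 0.02, 0.01 and 0.001 over all tested genes. The 3 comparisons share the same WT libraries, and the choice of genes was made with these contrasts known, so nothing is read from the counts. None of the 30 changes against WT was of at least 2-fold, and 4 genes (PPHLN1, TRIM28, CBX1, DNMT1) were called in no knockout. In sgKDM6A the count rests on single libraries: 0 of the 10 passed without sgKDM6A replicate 1 and 1 without sgKDM6A replicate 2, and in sgKDM5C 1 passed without sgKDM5C replicate 1. Between knockouts, 1 of the 10 was higher and 0 lower in sgKDM5C than in sgKDM6A, where 19.8% of all genes were called, 10.9% as higher and 8.86% as lower. In sgKDM5C against sgKMT2B 0 were higher and 2 lower (all genes 22.1%, with 11.6% higher and 10.5% lower), and in sgKDM6A against sgKMT2B 0 were higher and 5 lower (all genes 24.9%, with 12.4% higher and 12.5% lower). Nothing is read from these counts either. In bulk RNA, fewer cells of a type and less RNA per cell cannot be told apart.

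**Figure D1:**
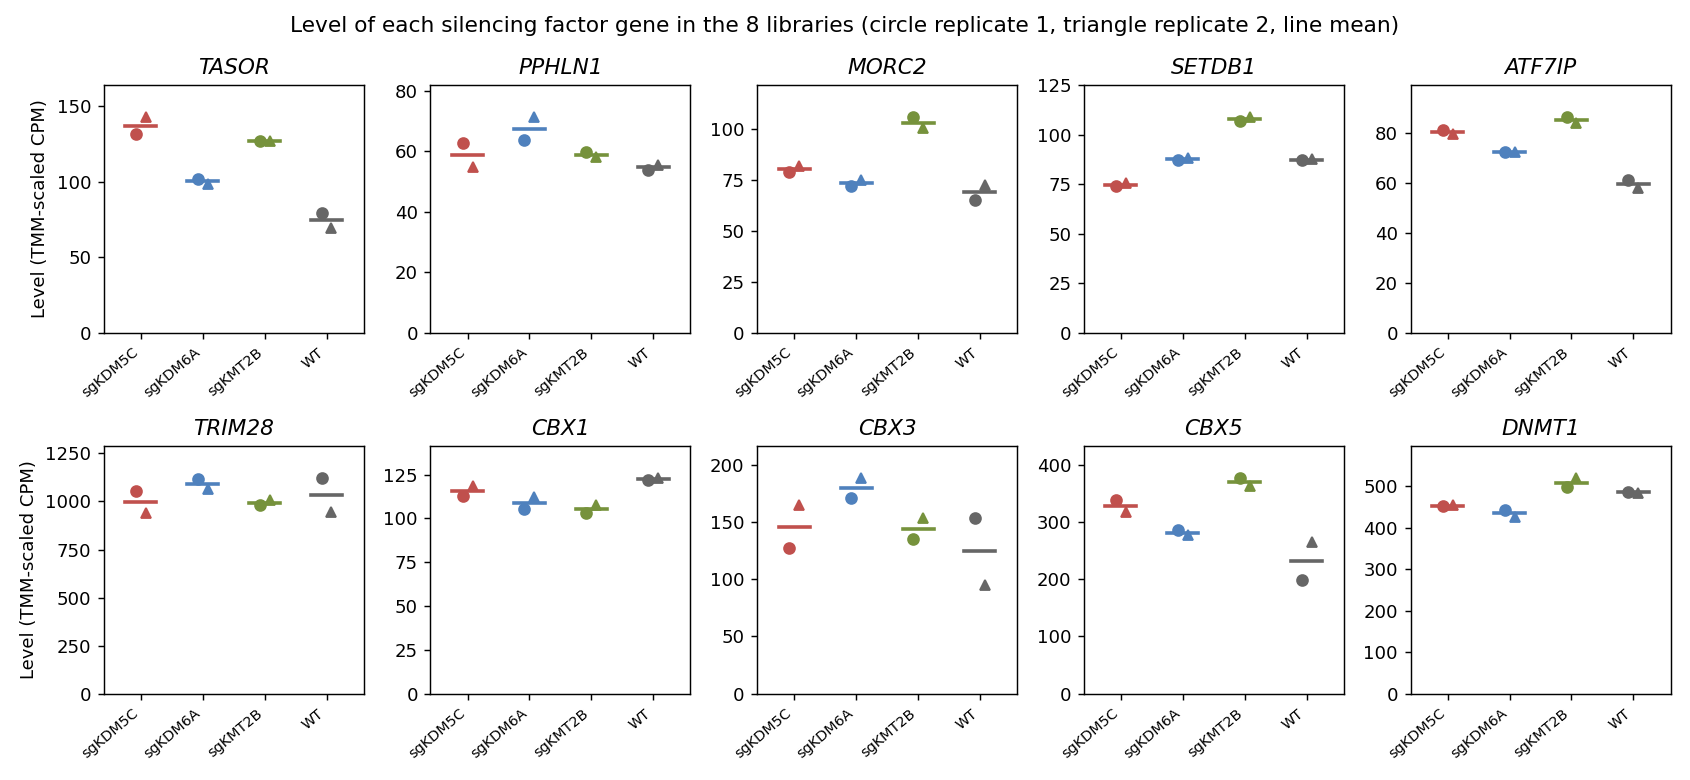
Level of each of the 10 genes (vertical axis, TMM-scaled CPM, starting at 0) in the libraries of sgKDM5C, sgKDM6A, sgKMT2B and WT; circles are replicate 1, triangles replicate 2 and lines the mean of 2. TASOR and ATF7IP lay higher in all 6 knockout libraries than in both WT libraries, while CBX3 and CBX5 differed widely between the 2 WT libraries.

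TASOR (ENSG00000163946, GRCh38 chromosome 3, 56620133 to 56683237), the scaffold of HUSH, had the largest increase of the group. It was at 131.5 and 143 CPM in sgKDM5C, 102 and 98.5 CPM in sgKDM6A, and 127 and 127 CPM in sgKMT2B, against 79.5 and 69.5 CPM in WT. All 6 knockout libraries were above both WT libraries, with sgKDM6A in between. The log2 change was 0.88 ± 0.10 in sgKDM5C (fitted value ± SE; edgeR adjusted p = 0.000118), 0.43 ± 0.10 in sgKDM6A (adjusted p = 0.00683) and 0.77 ± 0.10 in sgKMT2B (adjusted p = 0.000116), which is 1.84-, 1.34- and 1.7-fold. The difference between knockouts also passed: TASOR was higher in sgKDM5C than in sgKDM6A by 0.45 ± 0.10 (adjusted p = 0.00556) and lower in sgKDM6A than in sgKMT2B (log2 difference -0.34 ± 0.10, adjusted p = 0.0216). The sgKDM6A change did not pass without sgKDM6A replicate 1 (adjusted p = 0.0577), and those between knockouts did not pass without a replicate of either knockout in 2 of 8 and 4 of 8 repeats. TASOR overlaps 1686 bases of CCDC66 on the other strand, whose group means were 9.16 to 12.6 CPM and which passed in no knockout.

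PPHLN1 (ENSG00000134283, chromosome 12, 42238447 to 42459715), the periphilin subunit, was not called in any comparison. It was at 62.9 and 55 CPM in sgKDM5C, 63.6 and 71.2 CPM in sgKDM6A and 59.8 and 58 CPM in sgKMT2B, against 53.7 and 55.6 CPM in WT. Only sgKDM5C overlapped WT, and sgKDM6A was the highest group (log2 change 0.30 ± 0.11, adjusted p = 0.0574; 0.0459 with a replicate block). ZCRB1 runs through 14041 bases of the PPHLN1 span on the other strand.

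The reader subunit MPHOSPH8 (chromosome 13, 19633681 to 19673459), which is not among the 10 genes, was not called in sgKMT2B, where TASOR rose. It was at 30.9 and 25.9 CPM in sgKDM5C, 34.8 and 28.9 CPM in sgKDM6A and 17.1 and 13.8 CPM in sgKMT2B, against 18.9 and 22.3 CPM in WT. Its log2 change was 0.63 ± 0.16 in sgKDM6A (adjusted p = 0.0115), 0.47 ± 0.16 in sgKDM5C (adjusted p = 0.0534) and -0.41 ± 0.17 in sgKMT2B (adjusted p = 0.0811). MPHOSPH8 was higher in sgKDM6A than in sgKMT2B by 1.04 ± 0.16 (adjusted p = 0.00039) and higher in sgKDM5C than in sgKMT2B by 0.88 ± 0.16 (adjusted p = 0.0017). In sgKMT2B the 20 tested genes within 5 Mb of it had a median log2 change of -0.76, and MPHOSPH8 stood 0.35 above that median. It stood 0.49 and 0.55 above its neighbours in sgKDM5C and sgKDM6A. Over chromosome 13, 197 tested genes averaging 5 CPM or more had a median of -0.39 in sgKMT2B. The part of this chromosome in the value of MPHOSPH8 was not tested.

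MORC2 (ENSG00000133422, chromosome 22, 30925130 to 30968298) rose in sgKMT2B. It was at 79.2 and 81.9 CPM in sgKDM5C, 72.2 and 75.1 CPM in sgKDM6A and 106 and 101 CPM in sgKMT2B, against 65.6 and 72.8 CPM in WT. The sgKMT2B libraries stood above the other 6, and sgKDM6A overlapped WT. The log2 change was 0.58 ± 0.10 in sgKMT2B (edgeR adjusted p = 0.000864), 0.22 ± 0.10 in sgKDM5C (adjusted p = 0.127) and 0.09 ± 0.10 in sgKDM6A (adjusted p = 0.529). MORC2 was lower in sgKDM6A than in sgKMT2B (log2 difference -0.49 ± 0.10, adjusted p = 0.00249) and lower in sgKDM5C than in sgKMT2B (-0.36 ± 0.10, adjusted p = 0.0182). That of sgKDM5C did not pass when any single library of either knockout was left out (adjusted p up to 0.128). Its antisense partner MORC2-AS1 had at most 0.0396 CPM on average in any group.

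SETDB1 (ENSG00000143379, chromosome 1, 150926263 to 150964744) was highest in sgKMT2B and lowest in sgKDM5C. It was at 74.1 and 75.4 CPM in sgKDM5C, 87 and 88.1 CPM in sgKDM6A and 107 and 109 CPM in sgKMT2B, against 87 and 87.7 CPM in WT. The groups of sgKDM5C and sgKMT2B lay apart from all other libraries, and sgKDM6A overlapped WT. SETDB1 rose in sgKMT2B by 0.31 ± 0.09 (edgeR adjusted p = 0.0239), while its change was -0.22 ± 0.09 in sgKDM5C (adjusted p = 0.0965) and 0.004 ± 0.09 in sgKDM6A (adjusted p = 0.982). It was lower in sgKDM5C than in sgKMT2B by 0.53 on the log2 scale (difference -0.53 ± 0.09, adjusted p = 0.00104), a call that held in all 8 repeats with a library left out, and lower in sgKDM6A than in sgKMT2B (-0.30 ± 0.09, adjusted p = 0.0269), a call lost when any single library of these knockouts was left out (adjusted p up to 0.156) and without a filter (0.0531). The rise against WT was lost without sgKMT2B replicate 1 (adjusted p = 0.114) or replicate 2 (0.126). The 107 tested genes within 5 Mb of SETDB1 had a median log2 change of 0.26 in sgKMT2B, so that SETDB1 exceeded its neighbours by 0.04. SETDB1 overlaps 4162 bases of CERS2 on the other strand, which fell in sgKDM5C (log2 change -0.42, adjusted p = 0.00876).

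ATF7IP (ENSG00000171681, chromosome 12, 14365632 to 14502935), the cofactor that stabilises SETDB1, rose in sgKDM5C and sgKMT2B and just passed in sgKDM6A. It was at 81 and 79.5 CPM in sgKDM5C, 72.1 and 72.2 CPM in sgKDM6A and 86.1 and 83.9 CPM in sgKMT2B, against 61.1 and 57.8 CPM in WT. All knockout libraries were above both WT libraries, and no 2 groups overlapped. The log2 changes were 0.43 ± 0.10 in sgKDM5C (edgeR adjusted p = 0.00662), 0.28 ± 0.10 in sgKDM6A (adjusted p = 0.0458) and 0.52 ± 0.10 in sgKMT2B (adjusted p = 0.00155). No difference between knockouts passed. Without sgKDM5C replicate 1 the sgKDM5C change did not pass (adjusted p = 0.0543), and that of sgKDM6A passed in 1 of 8 repeats with a library left out (adjusted p = 0.0418 to 0.174).

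TRIM28 (ENSG00000130726, chromosome 19, 58544091 to 58550722), the co-repressor that bridges KRAB zinc finger proteins to SETDB1 and HP1, was not called in any comparison. It was at 1055 and 939 CPM in sgKDM5C, 1116 and 1067 CPM in sgKDM6A and 979 and 1009 CPM in sgKMT2B, against 1122 and 948 CPM in WT. The WT libraries spanned nearly the whole range, and every knockout overlapped them. The log2 changes were -0.06 ± 0.09, 0.08 ± 0.09 and -0.06 ± 0.09 in sgKDM5C, sgKDM6A and sgKMT2B (adjusted p = 0.715, 0.576 and 0.68).

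DNMT1 (ENSG00000130816, chromosome 19, 10133345 to 10231286), the maintenance methyltransferase, was not called against WT. It was at 452 and 454 CPM in sgKDM5C, 444 and 425 CPM in sgKDM6A and 497 and 520 CPM in sgKMT2B, against 485 and 484 CPM in WT. The groups did not overlap, but the largest change against WT was -0.16 ± 0.08 on the log2 scale, in sgKDM6A (adjusted p = 0.152). DNMT1 was lower in sgKDM6A than in sgKMT2B (-0.23 ± 0.08, adjusted p = 0.0498), and 9 of 14 alternatives lost this call (adjusted p up to 0.276). Among 28 S phase genes, which share its cell cycle phase, 2 rose and 5 fell in sgKDM5C, 3 rose and 4 fell in sgKDM6A, and 2 rose and 6 fell in sgKMT2B. That is 25%, 25% and 28.6% called, beside 22.6%, 27.2% and 28.1% of all genes. Their median log2 change was -0.05, 0 and -0.06. The licensing factor CDT1 fell in sgKDM5C (-0.99 ± 0.12, adjusted p = 0.000186), sgKDM6A (-0.87 ± 0.12, adjusted p = 0.00025) and sgKMT2B (-0.71 ± 0.12, adjusted p = 0.000953). In sgKDM6A POLE rose (0.579 ± 0.084, edgeR adjusted p = 0.000305) and MCM2 fell (-0.784 ± 0.089, adjusted p = 4.75e-05). RRM2 fell in sgKDM5C (-0.682 ± 0.089, adjusted p = 0.000251) and SLBP in sgKMT2B (-0.594 ± 0.095, adjusted p = 0.000539). RFC3 fell in sgKDM5C (-0.684 ± 0.106, adjusted p = 0.000801) and sgKMT2B (-0.547 ± 0.106, adjusted p = 0.00197). The part of these shifts in DNMT1 was not tested. S1PR2 shares 9854 bases with the DNMT1 span on the same strand and fell in sgKDM5C (log2 change -0.53, edgeR adjusted p = 0.0191).

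**Figure D2:**
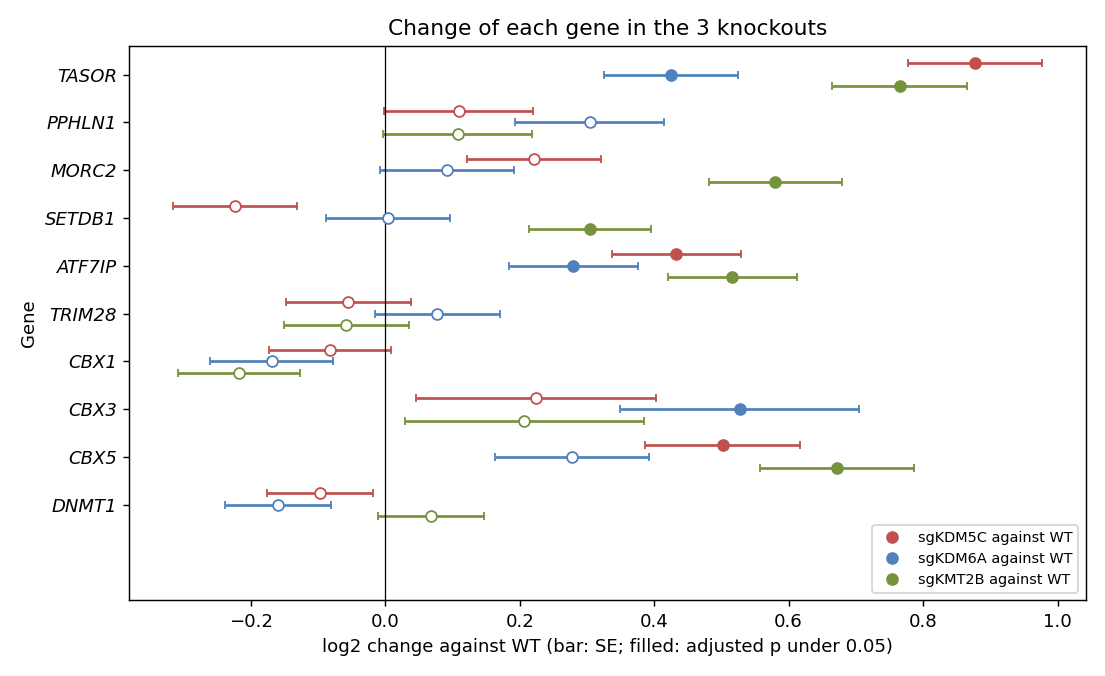
Change of each gene against WT (horizontal axis, log2; bars are the SE) in sgKDM5C, sgKDM6A and sgKMT2B; filled circles passed at an adjusted p under 0.05. Filled circles all lie right of 0, the values of SETDB1 spread from -0.22 in sgKDM5C to 0.31 in sgKMT2B, where the circle is filled, and TRIM28 and DNMT1 also have open circles on both sides of 0.

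CBX5 (ENSG00000094916, chromosome 12, 54230940 to 54280133), which encodes HP1 alpha, rose in sgKDM5C and sgKMT2B. It was at 339 and 318 CPM in sgKDM5C, 286 and 277 CPM in sgKDM6A and 377 and 363 CPM in sgKMT2B, against 199 and 266 CPM in WT. All knockout libraries were above both WT libraries, and the WT libraries differed more from each other than those of any knockout. The log2 change was 0.50 ± 0.12 in sgKDM5C (edgeR adjusted p = 0.0077), 0.28 ± 0.12 in sgKDM6A (adjusted p = 0.0888) and 0.67 ± 0.12 in sgKMT2B (adjusted p = 0.00086). In sgKDM6A it was 0.50 without WT replicate 2 (adjusted p = 0.00247) and 0.09 without WT replicate 1 (adjusted p = 0.509). In sgKDM5C it did not pass without sgKDM5C replicate 1 (adjusted p = 0.0567) and ran from 0.31 to 0.71 over the 8 libraries left out in turn. CBX5 was lower in sgKDM6A than in sgKMT2B (-0.39 ± 0.11, adjusted p = 0.0222), which did not pass when any single library of these knockouts was left out (adjusted p up to 0.116). The antisense gene SCAT2, which shares 16449 bases with it, was below 1 CPM in every group, at 0.241, 0.518 and 0.416 CPM in sgKDM5C, sgKDM6A and sgKMT2B and 0.83 CPM in WT.

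CBX3 (ENSG00000122565, chromosome 7, 26201162 to 26213356), which encodes HP1 gamma, was called in sgKDM6A with a value that depends on WT. It was at 127 and 165 CPM in sgKDM5C, 171 and 188 CPM in sgKDM6A and 135 and 153 CPM in sgKMT2B, against 153 and 95.2 CPM in WT. Both sgKDM6A libraries were above all others, and WT replicate 2 was the lowest of the 8. The log2 change in sgKDM6A was 0.53 ± 0.18 (edgeR adjusted p = 0.0419), 0.23 without WT replicate 2 (adjusted p = 0.297) and 0.92 without WT replicate 1 (adjusted p = 0.000998). DESeq2 gave an adjusted p of 0.155. In sgKDM5C and sgKMT2B its change was 0.22 ± 0.18 and 0.21 ± 0.18 (adjusted p = 0.394 and 0.418). Without WT replicate 1 it passed there (0.61, adjusted p = 0.0119, and 0.60, adjusted p = 0.0106), and without WT replicate 2 it was -0.09 in each (not called). The table names 10 pseudogenes after CBX3 and the gene overlaps 368 bases of HNRNPA2B1. How reads that match these too were counted is not known, so its count is uncertain.

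CBX1 (ENSG00000108468, chromosome 17, 48070052 to 48101521), which encodes HP1 beta, was not called. It was at 113 and 118 CPM in sgKDM5C, 105 and 112 CPM in sgKDM6A and 103 and 108 CPM in sgKMT2B, against 122 and 123 CPM in WT. Every knockout library was below both WT libraries, by log2 changes of -0.08 ± 0.09 (adjusted p = 0.555), -0.17 ± 0.09 (adjusted p = 0.188) and -0.22 ± 0.09 (adjusted p = 0.0924) in sgKDM5C, sgKDM6A and sgKMT2B. The table names 5 pseudogenes after it.

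Of the HP1 paralogs, CBX1 had a smaller share of their summed level per kb in every knockout library than in WT, while the shares of CBX3 and CBX5 overlapped WT in 2 of 3 knockouts each. CBX1 made up 41.3% ± 1.33 of the sum in sgKDM5C, 38% ± 0.12 in sgKDM6A and 38% ± 0.12 in sgKMT2B, against 48.5% ± 3.59 in WT (mean ± SD, n = 2). The highest CBX1 share in a knockout library was 42.3%, and the WT libraries were at 46% and 51.1%. The shares depend on the length chosen. Per kb of the longest transcript CBX1 averaged 33.1%, 29.2% and 30.4% in sgKDM5C, sgKDM6A and sgKMT2B, against 39.4% in WT. CBX3 then had the largest mean share in every group, at 47.1%, 54.9% and 47.2% in these knockouts and 44.7% in WT. CBX5 made up 24.2% ± 2.74, 20.2% ± 1.28 and 27.5% ± 1.71 in sgKDM5C, sgKDM6A and sgKMT2B, against 19% ± 5.08 in WT, and its WT values of 15.4% and 22.6% overlapped those of sgKDM5C and sgKDM6A. CBX3 made up 34.5% ± 4.07, 41.7% ± 1.16 and 34.5% ± 1.83 in sgKDM5C, sgKDM6A and sgKMT2B, against 32.4% ± 8.68 in WT, and the libraries of sgKDM5C and sgKMT2B lay between the WT values of 26.3% and 38.5%. The sum of the 3 was 90.7 ± 6.06 CPM per kb in sgKDM5C, 92.7 ± 3.74 in sgKDM6A and 89.7 ± 3.13 in sgKMT2B, against 81.9 ± 5.39 in WT. With 2 libraries against 2, the smallest p of a 2-sided exact permutation test is 0.333, so the shares were not tested.

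**Figure D3:**
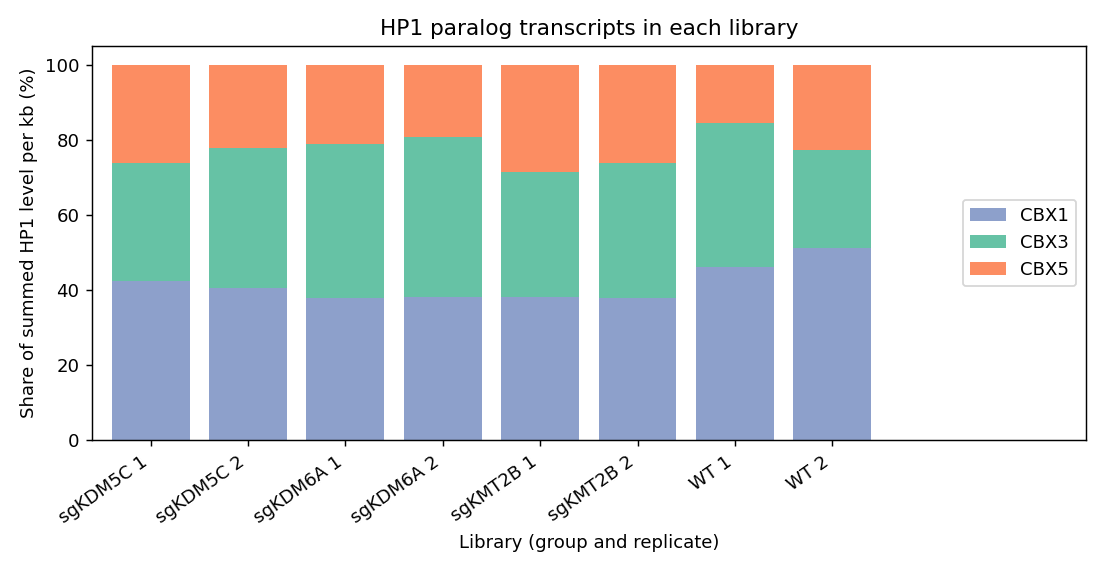
Share of the summed HP1 level per kb of annotated exon (vertical axis, percent) taken by CBX1, CBX3 and CBX5 in each library (horizontal axis, group and replicate). The CBX1 part runs from 37.9% to 42.3% in knockout libraries and is 46% and 51.1% in WT.

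The change of each gene was set beside that of the genes around it. Neighbours were tested genes that start within 5 Mb and average 5 CPM or more, and their number is given with each gene. The neighbours' median log2 change lay between -0.21 and 0.26. Each difference that follows is between the gene's log2 change and the median of its neighbours. TASOR exceeded its 57 neighbours by 0.85 in sgKDM5C, 0.38 in sgKDM6A and 0.78 in sgKMT2B. CBX5 exceeded its 142 neighbours by 0.55, 0.36 and 0.74 in the same order, and ATF7IP its 23 neighbours by 0.47, 0.24 and 0.72. MORC2 was 0.69 above its 61 neighbours in sgKMT2B, and CBX3 0.52 above its 52 neighbours in sgKDM6A. DNMT1 differed from its 155 neighbours by -0.01, -0.07 and -0.08 in sgKDM5C, sgKDM6A and sgKMT2B.

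**Figure D4:**
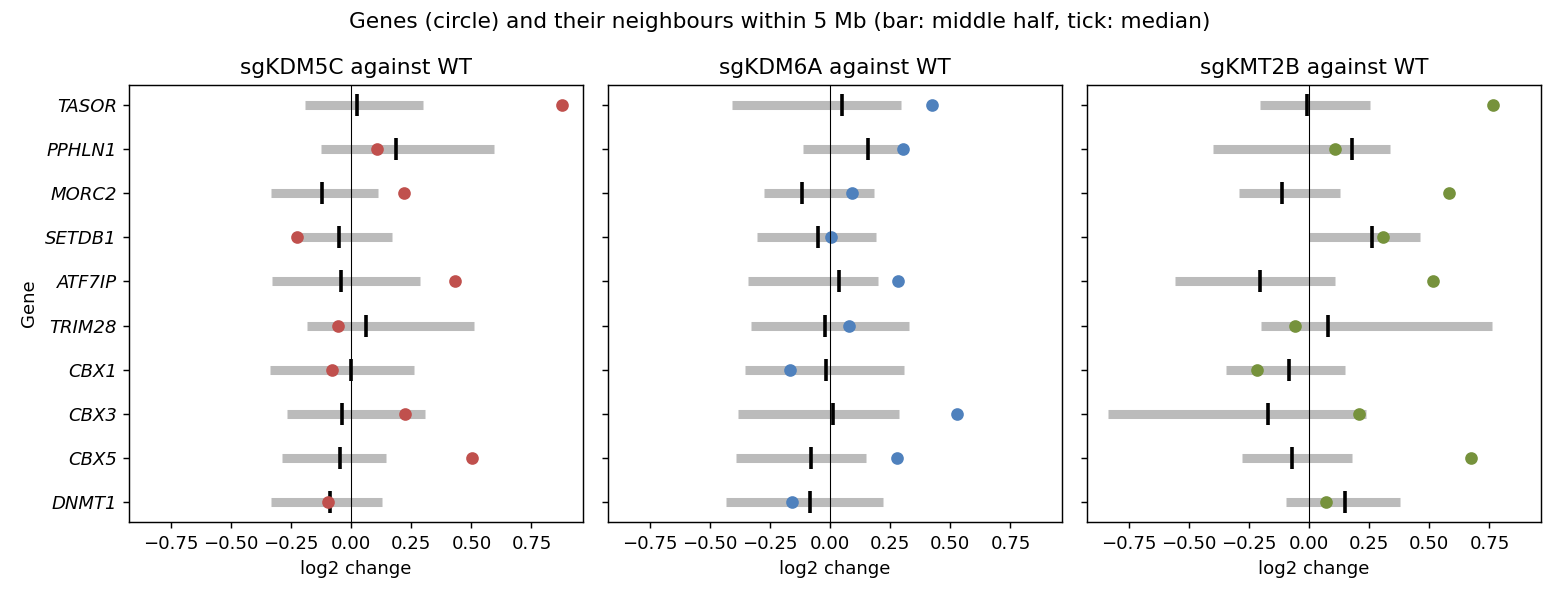
Change of each gene (circle) and of tested genes within 5 Mb of it (grey bar, lower to upper quartile; tick, median) against WT, on the log2 scale (horizontal axis), for sgKDM5C, sgKDM6A and sgKMT2B. TASOR lies right of the grey bar in all 3 panels, and SETDB1 in sgKMT2B, at 0.31, lies beside the tick at 0.26.

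Other genes were counted from 7 lists. These too were chosen with earlier results of these libraries known, so nothing is read from the shares called. The first 4 hold silencing cofactors, heterochromatin readers, H3K9 demethylases and DNA methylation genes, 72 in all with 70 tested, of which 16 rose and 10 fell in sgKDM5C (37.1% called), 20 rose and 9 fell in sgKDM6A (41.4%), and 22 rose and 7 fell in sgKMT2B (41.4%). Over all genes 22.6%, 27.2% and 28.1% were called. Called higher were 11.1%, 12.6% and 13.7% of all genes, and lower 11.5%, 14.6% and 14.5%. These shares stand beside the counts of each list below, from which nothing is read either. The other 3 hold imprinted, germline and S phase genes, 88 in all with 50 tested, of which 22%, 22% and 36% were called in the same knockouts. In sgKDM5C this share and the count over the 7 lists include SMC1B and MAJIN. Because of the filter, no test is given below for these germline genes. Over the 7 lists together 37, 40 and 47 of 120 tested genes were called. These last counts depend on single libraries: in sgKDM5C 19 were called without sgKDM5C replicate 1 and 23 without WT replicate 2, in sgKDM6A 23 without sgKDM6A replicate 1, and in sgKMT2B 24 without sgKMT2B replicate 1. Among 17 tested H3K9 methylation and silencing cofactors, 4 rose and 2 fell in sgKDM5C, 5 rose and 3 fell in sgKDM6A, and 5 rose and 1 fell in sgKMT2B. ZNF638, which brings HUSH to unintegrated retroviral DNA, rose by 0.74 ± 0.15 in sgKDM5C (edgeR adjusted p = 0.00353), 1.12 ± 0.15 in sgKDM6A (adjusted p = 0.000142) and 0.84 ± 0.15 in sgKMT2B (adjusted p = 0.000964). Its WT libraries differed widely, at 36 ± 9.8 CPM. WIZ, a zinc finger subunit of G9a complexes, fell in sgKDM5C (-0.58 ± 0.10, adjusted p = 0.00138) and sgKDM6A (-0.78 ± 0.10, adjusted p = 0.00011). The TASOR paralog TASOR2 rose in sgKDM6A to 129 ± 8.47 CPM, against 93.5 ± 4.52 CPM in WT (adjusted p = 0.00674). ZNF274, a zinc finger protein that recruits SETDB1, rose in sgKMT2B to 29.2 ± 4.31 CPM, against 16.3 ± 0.821 CPM in WT (adjusted p = 0.0013). ZNF644, a partner of G9a, rose in sgKDM5C (0.70 ± 0.18, adjusted p = 0.0143) and sgKMT2B (0.83 ± 0.18, adjusted p = 0.00432), with WT at 33.2 ± 9.3 CPM.

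Of 25 heterochromatin readers, chaperones and remodellers, 8 rose and 2 fell in sgKDM5C, 10 rose and 3 fell in sgKDM6A, and 11 rose and 0 fell in sgKMT2B. Their median log2 changes were 0.14, 0.22 and 0.27, beside 0.02, 0.01 and 0.001 over all tested genes. The HP1-binding zinc finger protein CHAMP1 rose to 33.8 ± 6.51 CPM in sgKDM5C, 38.6 ± 4.5 CPM in sgKDM6A and 37.9 ± 5.72 CPM in sgKMT2B, against 19 ± 0.45 CPM in WT (adjusted p = 0.00307, 0.000582 and 0.000592). The histone chaperone ASF1A rose by 0.87 ± 0.17 in sgKDM5C (adjusted p = 0.00259) and 1.03 ± 0.17 in sgKMT2B (adjusted p = 0.000529), with WT at 16.3 ± 4.5 CPM. ADNP, which binds HP1, rose in sgKMT2B to 166 ± 0.274 CPM, against 104 ± 1.16 CPM in WT (adjusted p = 0.000164), and the deacetylase HDAC1 rose in sgKDM5C to 597 ± 49.6 CPM, against 402 ± 21.9 CPM in WT (adjusted p = 0.000748). In sgKDM6A the methyl-CpG binder MBD2 rose (0.91 ± 0.14, adjusted p = 0.000467) and the histone-binding protein RBBP7 fell (-0.86 ± 0.09, adjusted p = 1.72e-05).

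Of 11 H3K9 demethylases, which oppose the silencing mark, 1 rose and 1 fell in sgKDM5C, 2 rose and 0 fell in sgKDM6A, and 2 rose and 2 fell in sgKMT2B. KDM4D was at 7.7 ± 0.081 CPM in sgKDM5C, 8.8 ± 0.842 CPM in sgKDM6A and 9.25 ± 0.0721 CPM in sgKMT2B, against 4.04 ± 0.346 CPM in WT, and rose in each (adjusted p = 0.00461, 0.001 and 0.000566). KDM4C fell in sgKDM5C (-0.62 ± 0.15, adjusted p = 0.0115) and sgKMT2B (-0.84 ± 0.16, adjusted p = 0.00145). PHF8 rose in sgKDM6A (0.30 ± 0.09, adjusted p = 0.0263) and PHF2 fell in sgKMT2B (-0.45 ± 0.11, adjusted p = 0.00692).

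In the DNA methylation list, 3 of 17 rose and 5 fell in sgKDM5C, 3 rose and 3 fell in sgKDM6A, and 4 rose and 4 fell in sgKMT2B. The thymine glycosylase TDG, which takes part in active demethylation, rose by 0.81 ± 0.13, 0.73 ± 0.13 and 0.70 ± 0.13 in sgKDM5C, sgKDM6A and sgKMT2B (adjusted p = 0.000807, 0.00106 and 0.00129). The de novo methyltransferase DNMT3B fell in sgKDM5C to 40.4 ± 2.45 CPM, against 65.7 ± 6.69 CPM in WT (adjusted p = 0.000975). ZBTB38, a reader of methylated DNA, rose in sgKDM5C (1.34 ± 0.22, adjusted p = 0.00106) and sgKMT2B (1.17 ± 0.22, adjusted p = 0.00155). In sgKDM6A the deubiquitinase USP7, which stabilises DNMT1, rose (0.52 ± 0.10, adjusted p = 0.0023) and the glycosylase MBD4 fell (-0.63 ± 0.13, adjusted p = 0.0034). CDCA7L fell in sgKMT2B (-0.58 ± 0.11, adjusted p = 0.0016).

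Imprinted genes are silenced on 1 allele through TRIM28 and DNMT1. Of 28 listed, 14 were tested. In sgKDM5C 1 rose and 1 fell, in sgKDM6A 1 rose and 2 fell, and in sgKMT2B 6 rose and 2 fell. ZDBF2 was at 40.6 ± 2.38 CPM in sgKDM5C, 38.7 ± 2.08 CPM in sgKDM6A and 34.6 ± 3 CPM in sgKMT2B, against 21.3 ± 1.12 CPM in WT (adjusted p = 0.000333, 0.00033 and 0.00127). GRB10 (0.60 ± 0.12, adjusted p = 0.00209) and GNAS (0.44 ± 0.09, adjusted p = 0.00236) rose in sgKMT2B. PLAGL1 fell in sgKDM6A (-0.34 ± 0.11, adjusted p = 0.0339). The other gene counted as fallen in sgKDM6A, H19, was near the floor, with 0 counts over both sgKDM6A libraries and 8 over both WT libraries. KCNQ1OT1 was lower in sgKDM5C at 2.57 ± 0.384 CPM, against 6.32 ± 3.56 CPM in WT (adjusted p = 0.0219). Of 32 germline genes, whose promoters DNA methylation keeps silent in somatic cells, 8 were tested. The others were too low to test, and a gene that passed the filter through a knockout group had to differ. In sgKDM5C the meiotic cohesin SMC1B was at 5.46 ± 1.85 CPM, against 0.127 ± 0.00429 CPM in WT, where it had 5 counts over both libraries, and the telomere attachment factor MAJIN at 2.16 ± 0.598 CPM, against 0.398 ± 0.196 CPM in WT, where it had 17 counts. No test is given for these 2 genes. TEX15 averaged 13.9 ± 5.2 CPM in sgKDM6A and 12.8 ± 3.4 CPM in sgKMT2B, against 5.82 ± 1.06 CPM in WT (adjusted p = 0.0156 and 0.0245), and the synaptonemal protein SYCP2 rose in sgKMT2B to 2.69 ± 0.0482 CPM, against 1.23 ± 0.183 CPM in WT (adjusted p = 0.0322).

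**Figure D5:**
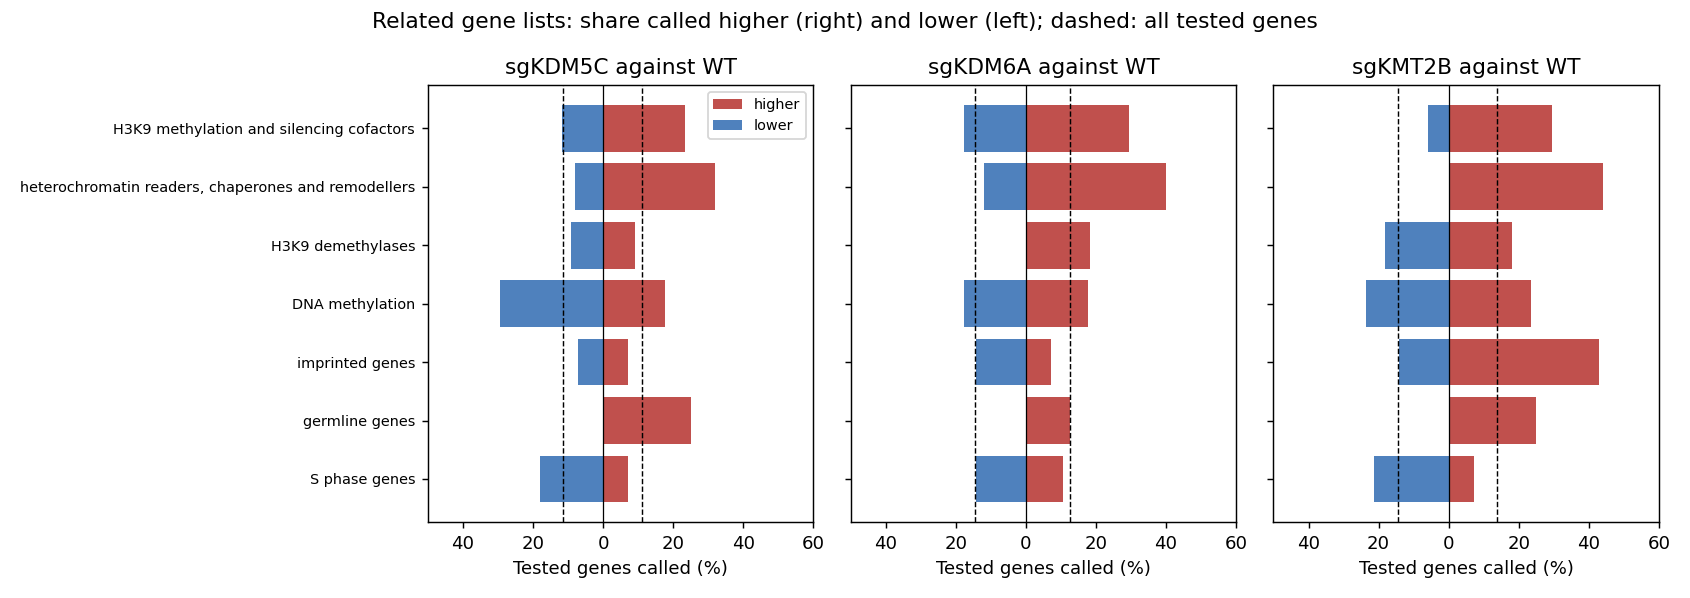
Share of the tested genes of each list (horizontal axis, percent) called higher (red, right of 0) and lower (blue, left of 0) against WT in sgKDM5C, sgKDM6A and sgKMT2B; dashed lines are the shares over all tested genes. In the reader, chaperone and remodeller list 11 of 25 genes were higher and 0 lower in sgKMT2B. The germline bar in sgKDM5C is made of SMC1B and MAJIN, for which the text gives no test.

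Among 10925 other tested genes averaging 5 CPM or more, those whose levels were most like each silencing factor were found by the root mean square difference of centred log2 CPM over the 8 libraries. For TASOR they were the long non-coding RNA TUG1 (0.08), the kinase subunit PRKACB (0.08) and LINC00342 (0.10), beside a range of 1.03 for TASOR itself. For ATF7IP they were ROBO1, MAP2K4 and DERA, at 0.05 each, and for CBX5 ZNF319 (0.05), APPL2 and SLC9A8 (0.07 to 0.08). MORC2 was most like DIDO1, SLC41A1 and CEP350 (0.07 each), and SETDB1 most like FH, CCS and DCBLD1 (0.03 to 0.05). CBX3 was most like SSB, the La protein that binds nascent RNA (0.05), SMIM30 (0.06) and USP15 (0.08). For PPHLN1, TRIM28, CBX1 and DNMT1, whose range was at most 0.41, the nearest genes were SENP2, PSMD3, GANAB and ELAVL1 at about 0.03.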

How the data were processed

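Poly(A) RNA of HEK293T cells was sequenced as read pairs, per the labels' protocols. The authors deposited raw counts per Ensembl gene for 8 libraries, and the submitters' processing notes name STAR, without a version, HTSeq 0.11.2 and the build GRCh38. No source used here gives the strand setting or annotation release, so reads of overlapping genes on opposite strands cannot be told apart. Of 60617 identifiers, 60596 had a symbol, and coordinates and exon lengths came from GENCODE v29.

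The main test was that of edgeR 4.0.16 under R 4.3.3 (glmQLFit, glmQLFTest; TMM, filterByExpr by group), fitted to all 8 libraries with 4 residual degrees of freedom, adjusted by Benjamini-Hochberg over 17527 genes. The fit was tested on simulated data. A floor of 3 counts is 0.109 to 0.189 CPM. The 10 genes, lists and tests were chosen with earlier results of these data known. Named list genes are up to 3 called genes per list and knockout with the smallest adjusted p. Alternatives were RLE and upper-quartile factors, DESeq2 1.42.0, no filter, only the groups compared, a replicate block and each library left out. Promoters came from RefSeq.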

Additional observations from a re-analysis of the deposited data

How the results depend on the processing

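Over 850 recomputed changes of the 10 genes, 792 kept their side of the threshold, 47 lost the call and 11 gained it. No called change turned its sign. Of the recomputed changes 25 did, none of them called: those of CBX3 in sgKDM5C and sgKMT2B without WT replicate 2, of TRIM28 against WT (up to 0.07 in sgKDM5C and sgKMT2B, down to -0.04 in sgKDM6A), of SETDB1 in sgKDM6A, and of PPHLN1, TRIM28 and CBX3 between sgKDM5C and sgKMT2B, each of which was at most 0.02 at first. With 1 library left out, the number of the 10 genes called ran from 1 to 4 for sgKDM5C against WT, 0 to 3 for sgKDM6A against WT, 4 to 6 for sgKMT2B against WT, 0 to 2 for sgKDM5C against sgKDM6A, 1 to 2 for sgKDM5C against sgKMT2B and 1 to 5 for sgKDM6A against sgKMT2B. The number of all genes called then ran from 1841 to 3877 for sgKDM5C against WT, 2495 to 4711 for sgKDM6A against WT, 2372 to 4787 for sgKMT2B against WT, 1878 to 4158 for sgKDM5C against sgKDM6A, 2236 to 4488 for sgKDM5C against sgKMT2B and 2551 to 4966 for sgKDM6A against sgKMT2B. That of listed pathway genes ran from 19 to 47 for sgKDM5C against WT, 23 to 43 for sgKDM6A against WT and 24 to 49 for sgKMT2B against WT. These fits have fewer samples, and a lone library is assumed to vary like the other groups. Without a filter 2 of the 10 genes were called for sgKDM5C against sgKDM6A. The other alternatives left each of these counts within 1.5 times its value.

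The labels do not say what a replicate number marks. Deviations of same-numbered samples correlated at -0.101 to 0.025 between a knockout and WT and at 0.304 to 0.481 between knockouts, a hint from the data that the knockout libraries may share something by number; with 2 replicates a group it was not taken as pairing. With a replicate block 3, 4 and 5 of the 10 genes and 4645, 5521 and 5576 of all genes were called in sgKDM5C, sgKDM6A and sgKMT2B against WT. Between knockouts the block called 1, 2 and 5 of the 10 genes and 4110, 4415 and 4966 of all genes (3468, 3882 and 4356 without it) for sgKDM5C against sgKDM6A, sgKDM5C against sgKMT2B and sgKDM6A against sgKMT2B. PPHLN1 in sgKDM6A was the only member change whose call the block altered. A crossed pairing for sgKDM5C against WT, chosen after seeing the data, called 3 of the 10 genes and 4864 of all genes. With 2 Mb in place of 5 Mb the neighbours' medians ran from -0.28 to 0.62, the highest near TRIM28 in sgKMT2B, and SETDB1 stood 0.07 above its neighbours in sgKMT2B. With the longest transcript as the length, WT levels per kb were higher for all 10 genes, and CBX3 (58.4) stood above CBX1 (50.5), the reverse of their order by union of exons.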
